A study of Mus musculus with 10 samples.

Results

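The collagen genes were taken as every gene of the count table whose mouse symbol has the form Col, a number, the letter a and a number. There were 43 of them among 21868 genes in all, 11 coding for fibrillar chains, 9 for network chains and 23 for other chains. RNA was sequenced from Flk1+ cells, which carry the VEGF receptor made from Kdr and include the early progenitors that blood and endothelium share. The cells were grown from mouse embryonic stem (ES) cells that form aggregates called embryoid bodies, in medium without leukemia inhibitory factor. WT cells had the Ldb1+/+ genotype and KO cells the Ldb1-/- genotype, lacking on both alleles an adaptor protein that links transcription factors, and neither the day of the RNA samples nor the design of the KO allele is stated in the labels. Each genotype was sequenced as 4 libraries of 11258493 to 13483294 counts. Counts of libraries 1 and 2 within a genotype agreed nearly to sampling noise, as did those of libraries 3 and 4, so these pairs were summed into sample A and sample B (n = 2 per genotype). Nothing in the labels ties A and B to separate cultures, and no label separates the genotypes from the ES cell lines that carry them, so p-values measure only the spread between these samples, and the genotype cannot be told apart from other properties of the lines.

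Collagens are secreted or membrane-bound matrix proteins whose chains assemble into trimers with a helical stretch rich in glycine and proline. Fibrillar collagens (types I, II, III, V, XI, XXIV and XXVII) pack into the banded fibrils of connective tissue, with types V and XI sitting inside fibrils of the more abundant types. Network collagens form sheets: type IV is the scaffold of every basement membrane, and types VIII and X form hexagonal lattices. The remaining types decorate fibrils (the FACIT group), form beaded filaments (type VI), anchor epithelia (type VII), span the cell membrane (types XIII, XVII, XXIII and XXV) or carry heparan sulfate or chondroitin sulfate in vessel and epithelial basement membranes (types XVIII and XV). In the early embryo type IV collagen appears first, and fibrillar collagens come with mesenchyme.

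Levels below are counts per 1000000 (CPM) scaled by the trimmed mean of M-values, called TMM. Collagen genes are ranked by CPM per kb of the transcript length in the deposited table. Sums over classes or lists, and the genes named as highest in a list, use CPM without regard to length. Ratios of chains use counts, with values per kb where these are given. Per kb, Col18a1 stood first in WT (135 ± 32.0, SD, n = 2), followed by the type IV genes Col4a1 (90.2 ± 11.4) and Col4a2 (58.6 ± 6.06), Col1a1 (22.5 ± 20.7) and Col1a2 (15.0 ± 0.149). In KO, Col1a2 stood first at 137 ± 48.9 CPM per kb, ahead of Col18a1 (109 ± 10.3), Col4a1 (100.4 ± 29.1), Col4a2 (70.9 ± 9.70) and Col1a1 (38.5 ± 26.8). Any pair of the first 3 genes of the KO order differed by less than the larger of its 2 SDs, as did Col1a1 and Col1a2 in WT. Of the 43 genes, 37 had a mean of at least 1 CPM and 9 a mean of at least 20 CPM. The 6 genes under 1 CPM were Col24a1, Col4a4, Col6a3, Col6a6, Col25a1 and Col28a1, with means of 0.122 to 0.985 CPM.

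**Figure D1:**
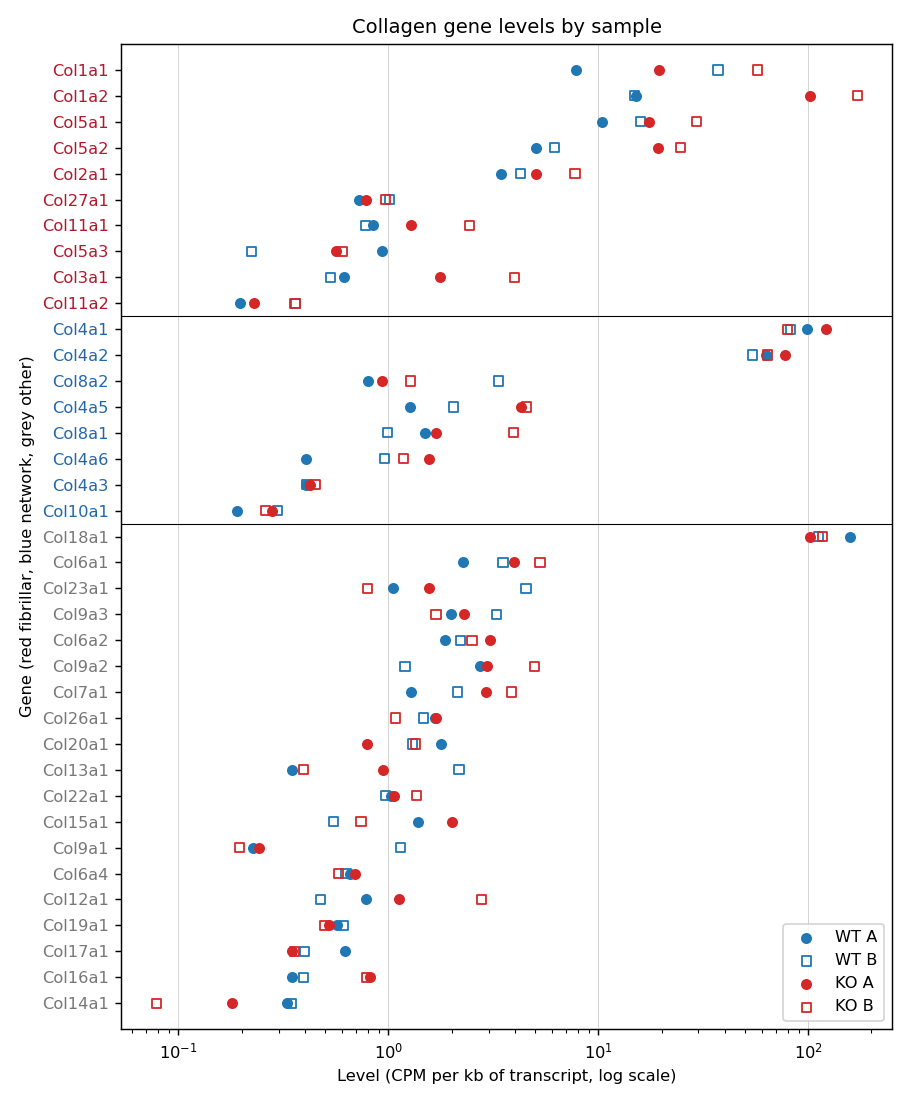
Level of each of the 37 collagen genes with a mean of at least 1 CPM, in CPM per kb of transcript on a log axis, with 1 symbol for each of the 4 samples (blue WT, red KO; filled circle A, open square B) and genes grouped by class. The symbols of Col18a1, Col4a1 and Col4a2 lie far to the right in every sample, whereas both KO symbols of Col1a2 lie to the right of both WT symbols.

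Summed over its genes, the fibrillar class was higher in KO, while the summed levels of the network and other classes overlapped between genotypes. The fibrillar genes together stood at 253 and 437 CPM in WT A and B and at 911 and 1592 CPM in KO A and B, so the groups did not overlap and the mean was 3.63 times as high in KO. The network genes stood at 1054 and 915 CPM in WT A and B and at 1324 and 984 CPM in KO, a ratio of means of 1.17. The other genes stood at 1099 and 842 CPM in WT and at 783 and 898 CPM in KO, a ratio of 0.867. Of all collagen CPM, the fibrillar share was 10.5% and 19.9% in WT A and B and 30.2% and 45.8% in KO A and B. Per kb of transcript these shares were 11.6% and 22.3% in WT and 33.3% and 49.8% in KO, so unequal transcript lengths do not alter the order of the samples. Col1a2 carried much of the difference: without it the fibrillar sum was 2.05 times as high in KO, at 175 and 360.0 CPM in WT against 385 and 710.3 CPM in KO. In bulk RNA of this kind, more cells that make a transcript and more transcript per cell cannot be told apart.

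**Figure D2:**
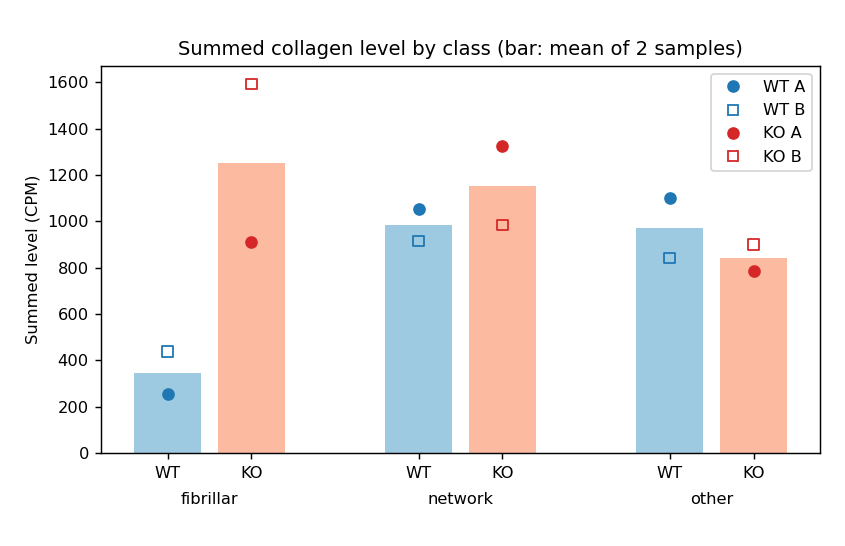
Summed level of the genes of each class in CPM, with bars for the mean of 2 samples per genotype and symbols for the samples. Both KO samples of the fibrillar class (911 and 1592 CPM) lie above both WT samples (253 and 437 CPM), and the symbols of the other classes overlap.

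KO and WT were compared to find the genes whose transcripts differ when Ldb1 is missing, and among the collagens the list was led by chains of types I and V. Col1a2 and Col5a2 rose in KO and 0 collagen genes fell by the edgeR quasi-likelihood test with Benjamini-Hochberg adjustment over all genes. These are 2 of the 41 collagen genes that passed the filter on low counts, or 4.88%, where 0.0596% of the 16785 genes tested rose, 0.125% fell and 0.185% passed in either direction. By DESeq2, 7 collagen genes rose and 0 fell, of 38 with an adjusted p (18.4%), where 3.69% of all genes rose, 3.66% fell and 7.35% passed in either direction. The additional 5 were Col3a1, Col11a1, Col4a5, Col7a1 and Col12a1. By limma-voom 0 collagen genes passed, where 3 genes passed in all. At an unadjusted edgeR p under 0.05, 9 collagen genes were higher and 1 was lower in KO, against 7.61% and 7.86% of all genes. In 18 of the 41 (43.9%) both KO samples lay above both WT samples, against 23.2% of all genes, and in 3 (7.32%; Col14a1, Col17a1 and Col19a1) both lay below, against 22.4%. The log2 fold change was above 0 in 26 of the 41, against 48.7% of all genes. The median log2 fold change was 0.78 over the 11 fibrillar genes, 0.28 over the 9 network genes and -0.19 over the 21 other genes that were tested, beside -0.01 over all genes tested. Without KO sample B the fibrillar median was 0.39 and the network median 0.41, so the order of these classes rests on that sample. Over all refits the fibrillar median lay between 0.39 and 1.16 and the network median between 0.13 and 0.51. With edgeR, leaving out a WT sample raised the count to 8 collagen genes (19.5% of those tested; 4 higher and 4 lower) without A and 6 (14.3%; all higher) without B. The same fits called 8.93% and 9.73% of all genes, so the count rose across the whole table. Leaving out KO library 1 took it to 1, and leaving out KO sample A or B took it to 0, as for all genes. No test compared the classes with each other.

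**Figure D3:**
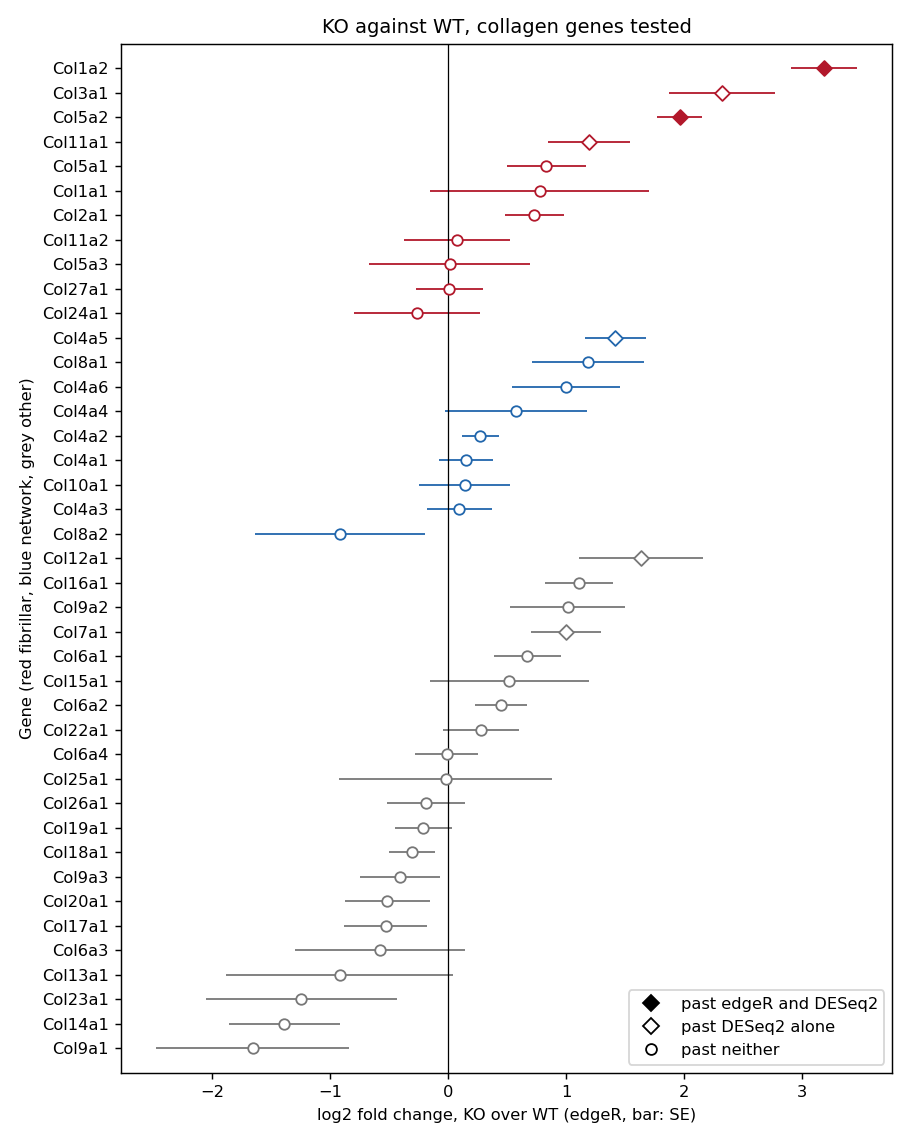
Log2 fold change of KO over WT from edgeR with its SE for the 41 collagen genes tested, grouped by class. Filled diamonds mark Col1a2 and Col5a2, which passed edgeR and DESeq2, open diamonds the 5 genes past DESeq2 alone, and open circles the genes past neither.

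Col1a2 (ENSMUSG00000029661, chromosome 6) encodes the alpha2 chain of type I collagen, the main collagen of skin, bone and tendon. It stood at 77.8 and 76.8 CPM in WT A and B and at 526 and 882 CPM in KO A and B, so even the lower KO sample was far above both WT samples. The difference was a log2 fold change of 3.19 (SE 0.28, edgeR adjusted p = 0.0493; 38624 reads over the 8 libraries). The adjusted p lies at the threshold. The call was lost when genes needed 1 CPM in 2 or more samples (edgeR adjusted p = 0.0535), by limma-voom (0.0758), with the sample letter as a replicate block (0.0768), when chromosome medians were removed (0.0539), without KO library 1 (0.0505) and without KO sample A (0.210) or KO sample B (0.355), fits in which edgeR called 0 genes of the whole table, 1704 and 1106 of them having an unadjusted p under 0.05. In all of these fits together with the other alternatives, the log2 fold change of Col1a2 lay between 2.77 and 3.52.

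The promoters of collagen genes past the DESeq2 test are shown because these genes stood higher together, with Col1a2 at the head; the 3 with the smallest DESeq2 adjusted p and an entry in the RefSeq promoter table (GRCm38.p6) are printed. Each is the 250 bases before the annotated start, all on the plus strand, at chr6:4505368-4505617 for Col1a2, chr1:45311288-45311537 for Col3a1 and chrX:141475169-141475418 for Col4a5. Capitals mark matches on either strand to the TATA box (TATAAA), the CCAAT box (CCAAT), the site of Sp1-type factors (GGGCGG), the E-box bound by Tal1 and its partners (CANNTG) or the site of GATA factors (GATA). In Col3a1 the TATA box match and an E-box match adjoin and no printed matches overlap.
Col1a2: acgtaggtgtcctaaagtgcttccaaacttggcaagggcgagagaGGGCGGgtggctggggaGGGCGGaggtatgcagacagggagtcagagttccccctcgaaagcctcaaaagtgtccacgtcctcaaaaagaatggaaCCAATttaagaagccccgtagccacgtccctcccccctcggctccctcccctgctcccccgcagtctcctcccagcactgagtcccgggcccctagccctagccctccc
Col3a1: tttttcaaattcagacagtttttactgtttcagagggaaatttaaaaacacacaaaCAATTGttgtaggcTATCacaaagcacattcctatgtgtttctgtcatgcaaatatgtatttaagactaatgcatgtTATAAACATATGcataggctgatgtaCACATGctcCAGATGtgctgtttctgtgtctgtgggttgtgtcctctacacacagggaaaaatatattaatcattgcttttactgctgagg
Col4a5: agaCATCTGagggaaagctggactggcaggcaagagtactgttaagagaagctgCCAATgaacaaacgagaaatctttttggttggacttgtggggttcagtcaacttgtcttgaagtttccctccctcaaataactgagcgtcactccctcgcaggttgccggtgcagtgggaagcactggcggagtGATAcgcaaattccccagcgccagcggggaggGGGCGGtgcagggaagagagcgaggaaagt

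The Col1a2 window is 62.0% G and C and holds 1 CCAAT match, which starts 109 bases before the start, and 2 GGGCGG matches, with 0 matches to CANNTG or GATA. The Col3a1 window is 35.2% G and C and holds 4 CANNTG matches and 1 GATA match, and the Col4a5 window (54.0%) holds 1 of each. Windows were available for 34 of the 43 collagen genes (37 windows), with a median of 59.2% G and C beside 52.4% over all 32851 windows. GGGCGG was present in 21 of the 37 (56.8%, against 32.7% of all windows), CCAAT in 13 (35.1% against 33.8%), TATAAA in 5 (13.5% against 12.4%), CANNTG in 18 (48.6% against 66.2%) and GATA in 14 (37.8% against 53.6%). These are matches of letters, not measured binding, and the motifs differ in base content, as do the windows. The table has no entry for Col5a2 and Col1a1.

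Col1a1 (chromosome 11) encodes the alpha1 chain of type I collagen, the partner of the Col1a2 product and the more numerous chain of the common type I trimer. It stood at 37.0 and 176 CPM in WT A and B and at 92.8 and 272 CPM in KO A and B, so sample B exceeded sample A in each genotype and the groups overlapped. Its log2 fold change was 0.78 (SE 0.93, edgeR adjusted p = 0.794), and -0.20 without KO sample B. Genes of chromosome 11 as a whole had a median log2 difference of -0.47 in KO, whereas those of chromosome 6, which carries Col1a2, had one of 0.04. The ratio of Col1a1 to Col1a2 counts within a sample was 0.475 and 2.29 in WT A and B and 0.177 and 0.309 in KO A and B, lower in both KO samples, with a mean log2 difference of -2.16. Per kb of transcript the ratio was 0.515 and 2.49 in WT and 0.191 and 0.335 in KO, so WT B was the only sample with more Col1a1 than Col1a2 RNA. The size of the difference rests on the WT samples: it was -1.02 without WT B and -3.30 without WT A, with KO still lower.

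Type V collagen nucleates fibrils and sets their width, and its common trimer holds products of Col5a1 and Col5a2. Col5a2 (ENSMUSG00000026042, chromosome 1) stood at 33.3 and 41.0 CPM in WT A and B and at 127 and 163 CPM in KO A and B, well apart by genotype. It rose by a log2 fold change of 1.96 (SE 0.19, edgeR adjusted p = 0.0493), a call lost under the stricter filter (0.0535), by limma-voom (0.0819), with the replicate block (0.0732), with chromosome medians removed (0.0539) and without KO sample A (0.314) or B (0.716). Col5a1 (chromosome 2) stood at 63.8 and 98.1 CPM in WT and at 108 and 181 CPM in KO, without overlap, and did not pass (log2 fold change 0.83, SE 0.34, edgeR adjusted p = 0.349). The ratio of Col5a1 to Col5a2 counts was 1.91 and 2.39 in WT A and B and 0.850 and 1.11 in KO A and B, lower in both KO samples, with a mean log2 difference of -1.14. Col5a3, the gene of a further type V chain, stood at 5.68 and 1.36 CPM in WT and at 3.41 and 3.67 CPM in KO (a log2 fold change of 0.01, SE 0.68).

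Col3a1, whose product forms fibrils with type I collagen in vessel walls and soft tissue, is the neighbour of Col5a2 on chromosome 1. It stood at 2.94 and 2.53 CPM in WT A and B and at 8.38 and 19.0 CPM in KO A and B, the higher value being in KO B. Its log2 fold change of 2.32 (SE 0.45) did not pass edgeR (adjusted p = 0.117) and passed DESeq2 (adjusted p = 9.13e-05). Col11a1, a type XI chain that starts cartilage fibrils, stood at 6.27 and 5.77 CPM in WT and at 9.55 and 18.1 CPM in KO. Its log2 fold change was 1.20 (SE 0.35, edgeR adjusted p = 0.191, DESeq2 adjusted p = 0.0411). Col2a1, the main cartilage collagen, stood at 19.0 and 23.7 CPM in WT and at 28.0 and 43.0 CPM in KO, without overlap, and passed neither test (log2 fold change 0.73, SE 0.25, edgeR adjusted p = 0.257). In each of these genes, as in Col1a2, Col1a1, Col5a1 and Col5a2, KO B was the highest sample. The remaining fibrillar genes showed no such order: Col11a2 (0.08, SE 0.45), Col27a1 (0.01, SE 0.28) and Col24a1 (-0.26, SE 0.54) had overlapping groups and levels of at most 7.70 CPM.

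Type IV collagen RNA stood near the top of the order in every sample, and the genes of its principal chains did not pass the test. Col4a1 stood at 641 and 536 CPM in WT A and B and at 789 and 521 CPM in KO A and B, with overlapping groups (log2 fold change 0.15, SE 0.23, edgeR adjusted p = 0.843). Col4a2 stood at 387 and 334 CPM in WT and at 479 and 394 CPM in KO, where the lower KO sample exceeded the higher WT sample by a small margin (log2 fold change 0.28, SE 0.16, edgeR adjusted p = 0.492). Both lie on chromosome 8, whose genes as a whole had a median log2 difference of 0.25 in KO; with chromosome medians removed they stood at -0.09 and 0.03. Their products make up the common type IV trimer, and the genes are transcribed away from each other from RefSeq starts 21 bases apart. The RefSeq gene models of the pair overlap, and with no strand setting stated some reads may be shared between them. The ratio of Col4a1 to Col4a2 counts was 1.66 and 1.60 in WT A and B and 1.65 and 1.32 in KO A and B, with overlap and a mean log2 difference of -0.14. Over the same samples the ratios within types I and V differed by genotype without overlap. Such separation is common with 2 samples per genotype: among all genes, both KO samples lay above both WT samples in 23.2% and below in 22.4%. The contrast between types I and V and type IV was not tested.

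**Figure D4:**
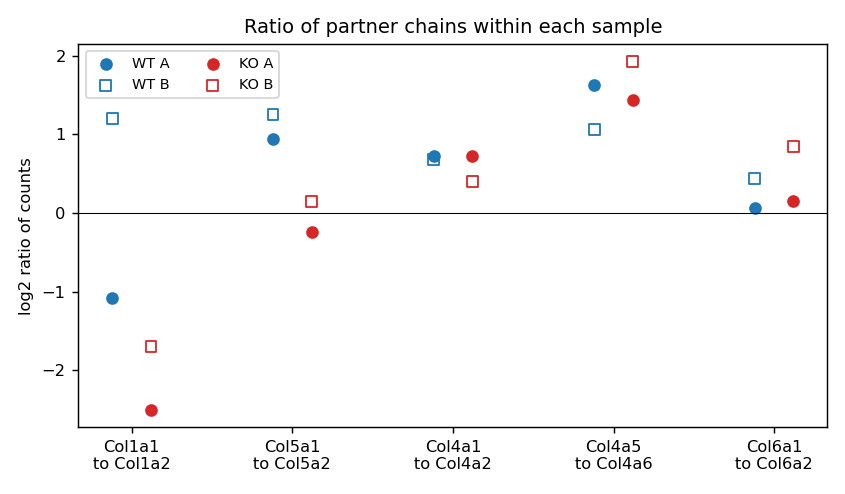
Log2 ratio of the counts of partner chains within each sample, with 1 symbol for each of the 4 samples. For Col1a1 to Col1a2 and Col5a1 to Col5a2 both KO symbols lie below both WT symbols; for Col4a1 to Col4a2, Col4a5 to Col4a6 and Col6a1 to Col6a2 the genotypes overlap.

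The X-linked pair Col4a5 and Col4a6, type IV chains of kidney, skin and smooth muscle basement membranes, are also divergent neighbours. Col4a5 stood at 8.28 and 13.3 CPM in WT A and B and at 28.0 and 29.9 CPM in KO A and B, apart by genotype and close together within KO. Its log2 fold change was 1.42 (SE 0.26, edgeR adjusted p = 0.110, DESeq2 adjusted p = 0.000291), and it passed edgeR when WT sample A (adjusted p = 0.00436) or WT sample B (0.000328) was left out and not when KO sample A (0.425) or KO sample B (0.721) was. Col4a6 stood at 2.69 and 6.38 CPM in WT and at 10.4 and 7.84 CPM in KO, also without overlap (log2 fold change 1.00, SE 0.46, edgeR adjusted p = 0.389). The remaining divergent pair, on chromosome 1, lay low: Col4a3 was at 3.16 to 3.47 CPM in the 4 samples, and Col4a4 was at 0.213 to 0.702 CPM. Of the network genes outside type IV, Col8a1, a chain of vessel and corneal lattices, stood at 7.60 and 5.06 CPM in WT and at 8.64 and 20.2 CPM in KO (a log2 fold change of 1.19, SE 0.47, edgeR adjusted p = 0.335). Its partner Col8a2 did not follow: it stood at 3.46 and 14.5 CPM in WT and at 4.02 and 5.54 CPM in KO (-0.91, SE 0.72). Col10a1, a marker of hypertrophic cartilage, was at 0.939 to 1.47 CPM (0.14, SE 0.38). Among the 9 network genes edgeR called 0, with 1 higher and 0 lower at an unadjusted p under 0.05, DESeq2 called Col4a5 and limma-voom called 0. The 1 higher gene is 11.1% of the 9, where 7.61% of all genes were higher and 7.86% lower unadjusted. DESeq2 called 3.69% of all genes higher, and edgeR called 0.185% in either direction.

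Of the 23 other genes 21 were tested, and in 7 (33.3%) both KO samples lay above both WT samples, against 23.2% of all genes. In 3 (14.3%) both lay below, against 22.4%. The 7 were Col12a1, Col7a1, Col6a1, Col6a2, Col9a2, Col16a1 and Col22a1, and only Col12a1 and Col7a1 passed a test, DESeq2. By edgeR 0 of the 21 tested passed, with 3 higher and 1 lower at an unadjusted p under 0.05, while DESeq2 called 2 higher and 0 lower and limma-voom called 0. The unadjusted shares were 14.3% higher and 4.76% lower, where 7.61% of all genes were higher and 7.86% lower. By DESeq2 10.5% of those with an adjusted p were higher, against 3.69% of all genes, and edgeR called 0.185% of all genes. Col12a1, a FACIT chain that coats type I fibrils, stood at 9.13 and 5.55 CPM in WT A and B and at 13.1 and 32.4 CPM in KO A and B (log2 fold change 1.63, SE 0.52, edgeR adjusted p = 0.250, DESeq2 adjusted p = 0.0155). Col7a1, which builds the anchoring fibrils under epithelia, stood at 11.8 and 19.7 CPM in WT and at 27.1 and 35.8 CPM in KO (a log2 fold change of 1.00, SE 0.30, edgeR adjusted p = 0.207, DESeq2 adjusted p = 0.0407). In both genes the KO samples lay above the WT samples. The type VI neighbours Col6a1 and Col6a2, whose products form beaded filaments around cells, lay at log2 fold changes of 0.67 (SE 0.28) for the first and 0.45 (SE 0.22) for the other, also without overlap, and neither passed. The remaining type VI genes did not share that direction: Col6a4 stood at -0.01 (SE 0.27) and Col6a3, at no more than 0.640 CPM, at -0.58 (SE 0.72), both with overlap.

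The other FACIT genes went both ways, and none passed either test. Col16a1 was at 1.79 and 2.04 CPM in WT A and B and at 4.23 and 4.06 CPM in KO A and B (log2 fold change 1.11, SE 0.29, edgeR adjusted p = 0.166), and Col14a1 at 2.13 and 2.23 CPM in WT and at 1.17 and 0.507 CPM in KO (-1.39, SE 0.47, adjusted p = 0.246). Both are low, with 298 and 149 reads over the 8 libraries, and in both the genotypes did not overlap. The 3 type IX genes of cartilage differed in direction: Col9a2 stood at 1.01 (SE 0.49), Col9a3 at -0.41 (SE 0.34) and Col9a1 at -1.65 (SE 0.82). In Col9a2 both KO samples (8.73 and 14.7 CPM) lay above both WT samples (8.07 and 3.55 CPM). WT B alone set the value of Col9a1, which stood at 0.768 and 3.89 CPM in WT A and B and at 0.821 and 0.663 CPM in KO. Col9a3 overlaps the gene model of Tcfl5, and since the labels do not state whether counting used strand, its reads may be shared. The same limit holds for Col4a1 with Col4a2, Col4a3 with Col4a4 and Col10a1 with Nt5dc1, whose gene models also overlap. Col19a1 (-0.21, SE 0.24), Col20a1 (-0.51, SE 0.36) and Col22a1 (0.28, SE 0.32) passed neither test either. Of these, Col19a1 was below in both KO samples and Col22a1 above.

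All 4 transmembrane genes had log2 fold changes below 0: Col23a1 -1.24 (SE 0.81), Col13a1 -0.92 (SE 0.96), Col17a1 -0.53 (SE 0.35) and Col25a1 -0.02 (SE 0.90). For Col23a1 and Col13a1 a single WT sample set the value. Col23a1 stood at 5.93 and 25.6 CPM in WT A and B and at 8.86 and 4.49 CPM in KO, and Col13a1 at 1.07 and 6.64 CPM in WT and at 2.89 and 1.21 CPM in KO, so WT A lay within or below the KO range. Col18a1, whose C-terminal fragment is endostatin and which is a basement membrane proteoglycan, stood at 998 and 711 CPM in WT and at 646 and 739 CPM in KO, with overlap (log2 fold change -0.30, SE 0.20, edgeR adjusted p = 0.552). Its relative Col15a1 stood at 7.04 and 2.79 CPM in WT and at 10.3 and 3.79 CPM in KO, lower in sample B of each genotype (0.52, SE 0.67). Col26a1 stood at -0.19 (SE 0.33). Col28a1, at 12 reads, and Col6a6, at 16 reads over all libraries, were too low to be tested.

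Samples A and B of a genotype differed for some collagens by more than the genotypes did. Between WT samples, 9 of the 37 collagen genes with at least 1 CPM (24.3%) differed by more than 1 on the log2 scale, against 7.16% of the 15232 genes at that level. Higher in WT B were Col1a1, Col13a1, Col23a1, Col8a2, Col9a1 and Col4a6, with log2 ratios of B over A of 2.24, 2.19, 2.02, 1.93, 1.79 and 1.11. Lower in WT B were Col5a3 (-1.73), Col15a1 (-1.20) and Col9a2 (-1.08). Between KO samples 5 genes (13.5%) differed that far, against 1.46% of all genes. These were Col1a1 (1.55), Col12a1 (1.27), Col8a1 (1.18) and Col3a1 (1.14), higher in KO B, and Col15a1 (-1.34). Of the 6 genes higher in WT B, Col13a1, Col23a1, Col9a1 and Col4a6 had ratios below 0 in KO, from -0.99 to -0.18. A ratio of B over A rests on 1 sample on each side and was not tested.

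Markers of cell types also differed between the samples. Kdr, the sort marker, stood at 440 and 605 CPM in WT A and B and at 236 and 78.6 CPM in KO A and B (log2 fold change -1.73, SE 0.59, edgeR adjusted p = 0.289). Of the mesoderm genes, Mesp1 went from 0.256 CPM in WT A to 18.5 CPM in WT B and T from 0.896 to 12.6 CPM, and in KO they lay at 0.778 and 0.117 CPM and at 7.95 and 1.44 CPM in A and B. Summed pluripotency genes stood at 1872 and 410.2 CPM in WT A and B and at 811 and 1056 CPM in KO. The counts per marker list below stand beside these shares of all genes. At an unadjusted edgeR p under 0.05, 7.61% of all genes were higher and 7.86% lower in KO. DESeq2 called 3.69% higher and 3.66% lower, and 0.185% passed edgeR in either direction. Of the 8 genes of Flk1-sorted mesoderm, Kdr included, 0 passed edgeR (0 higher and 3 lower at an unadjusted p under 0.05; 1 lower by DESeq2, 0 by limma-voom). Their sum was 1006 to 1044 CPM in WT and 261 to 602 CPM in KO (median log2 fold change -1.19), with the endothelial genes Pecam1 at -2.03 (SE 0.55) and Cdh5 at 0.05 (SE 0.61). Of 10 mesenchyme and fibroblast markers 9 were tested and 0 passed edgeR (1 higher and 0 lower at an unadjusted p under 0.05; Postn higher by DESeq2, 0 by limma-voom). Their sum was 53.6 to 99.7 CPM in WT and 72.4 to 89.8 CPM in KO (median 0.03). Pdgfrb, a receptor gene of mesenchyme, lay at 0.13 (SE 0.19) on the log2 scale. Postn, an extracellular protein gene of mesenchyme, stood at 7.47 and 4.79 CPM in WT and at 21.4 and 42.8 CPM in KO, Pdgfra at 11.99 and 53.5 CPM in WT and at 12.5 and 8.23 CPM in KO, and Tcf21 at no more than 0.151 CPM in any sample. Of 10 parietal endoderm markers, a cell type rich in type IV collagen, 0 passed edgeR (3 higher and 2 lower unadjusted; 1 higher and 1 lower by DESeq2, 0 by limma-voom). Their sum was 571 to 584 CPM in WT and 540.1 to 557 CPM in KO (median -1.20). Much of this sum was Lamb1, at 313 and 284 CPM in WT A and B and at 375 and 399 CPM in KO. The near-equal sums therefore say little of the other members. The members of this list with the highest CPM, Lamb1, Dab2 and Lama1, lay at 0.37 (SE 0.13), 0.60 (SE 0.21) and -1.76 (SE 0.64) on the log2 scale. Of the 8 pluripotency genes 0 passed edgeR (0 higher and 1 lower unadjusted; 1 lower by DESeq2, 0 by limma-voom; median -0.55), and Dppa5a, Pou5f1 and Nanog lay at -0.32 (SE 1.03), 0.50 (SE 0.61) and -0.65 (SE 0.39). The marker genes that DESeq2 called besides Postn, named with their values known, were Plat (log2 fold change 1.66, SE 0.52) and Thbd (-1.39, SE 0.18) of the endoderm list, Tal1 (-1.11, SE 0.37) of the mesoderm list and Klf4 (-1.02, SE 0.28) of the pluripotency list. The part of any of these cell types in the collagen differences was not tested. Ldb1 transcripts stood at 105 and 113 CPM in WT and at 96.1 and 80.1 CPM in KO (a log2 fold change of -0.31, SE 0.15, edgeR adjusted p = 0.410), and since the deleted part of the gene is not stated these counts do not check the labels.

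Genes that make, bind and break down collagen were read from the same fit in 5 lists with 62 genes in the table, 55 of them tested. By edgeR 0 of these passed, against 0.185% of all genes, and limma-voom called 0. At an unadjusted edgeR p under 0.05 each of the 5 lists held more higher than lower genes, where 7.61% of all genes were higher and 7.86% lower. DESeq2 called 10 higher and 1 lower, where 3.69% of all genes were called higher and 3.66% lower. With edgeR, 14 passed without WT sample A (11 higher and 3 lower) and 15 without WT sample B (12 higher and 3 lower), fits that called 8.93% and 9.73% of all genes, and 0 passed without KO sample A or B, where 0 genes passed in all.

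Of 19 modification and folding genes, 4 were higher and 3 lower at an unadjusted p under 0.05 and the median log2 fold change was 0.16. DESeq2 called Serpinh1 higher and P4hb lower. Serpinh1, the collagen chaperone HSP47 of the endoplasmic reticulum, stood at 158 and 290 CPM in WT A and B and at 385 and 517 CPM in KO (a log2 fold change of 1.01, SE 0.34, edgeR adjusted p = 0.266). P4hb, the protein disulfide isomerase that is also a subunit of prolyl 4-hydroxylase, stood at 677 and 629 CPM in WT and at 395 and 497 CPM in KO (-0.55, SE 0.16, adjusted p = 0.187). P4hb lies on chromosome 11, whose median was -0.47. For both genes the genotypes did not overlap, in opposite directions. Ppib, a folding isomerase, had a log2 fold change of 0.26 (SE 0.14).

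Of 11 tested processing and crosslinking genes, 4 were higher and 0 lower unadjusted, with a median of 0.49, and DESeq2 called 3 higher. Bmp1, the protease that removes C-propeptides from fibrillar procollagens, stood at 21.4 and 23.5 CPM in WT A and B and at 45.8 and 73.1 CPM in KO (a log2 fold change of 1.41, SE 0.25, edgeR adjusted p = 0.110). The lysyl oxidase relatives Loxl1, Loxl2 and Loxl4, which crosslink collagen and elastin, lay at 1.25 (SE 0.37), 0.74 (SE 0.24) and 1.16 (SE 0.27) on the log2 scale, and both KO samples exceeded both WT samples in each. Their relative Loxl3 lay at 0.49 (SE 0.37), with overlap. Both KO samples lay above both WT samples in 5 of the 11 tested genes of this list, against 23.2% of all genes. Lox itself was at no more than 0.429 CPM. Pcolce, whose product enhances Bmp1, was at 28.1 and 13.9 CPM in WT and at 29.7 and 43.0 CPM in KO (0.80, SE 0.40). Its relative Pcolce2 lay in the other direction (-0.69, SE 0.59), with overlap. Adamts2, Adamts3 and Adamts14, proteases of the N-propeptide, lay at -1.11 (SE 0.59), -1.16 (SE 0.91) and -0.65 (SE 0.47) with overlapping groups. Tll1, a relative of Bmp1, also overlapped (-0.47, SE 0.51), so Bmp1 was the propeptide protease gene of the list whose genotypes stood apart.

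Of 7 tested receptor genes, 3 were higher and 1 lower unadjusted, with a median of 0.17, and DESeq2 called Ddr1 and Itgb1 higher. Ddr1, a receptor tyrosine kinase that binds fibrillar and type IV collagen, stood at 54.9 and 60.7 CPM in WT A and B and at 137 and 164 CPM in KO (a log2 fold change of 1.38, SE 0.15, edgeR adjusted p = 0.0614). Itgb1, the beta1 integrin subunit shared by all collagen-binding integrins, stood at 515 and 561 CPM in WT and at 873 and 1193 CPM in KO (0.94, SE 0.18, adjusted p = 0.113). Its tested alpha partners differed in direction. Itga11, which favours type I collagen, lay at 1.52 (SE 0.47), and Itga1, which favours type IV, at -1.19 (SE 0.43), each without overlap. Itga2 lay at -0.52 (SE 0.61), with overlap. Both KO samples lay above both WT samples in 23.2% of all genes and below in 22.4%. None of these alpha genes passed, and the differences between them were not tested. Mrc2, an endocytic collagen receptor, lay at 0.17 (SE 0.32).

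Of 9 tested genes of breakdown and its inhibitors, 2 were higher and 0 lower unadjusted, with a median of 0.43, and DESeq2 called both. Mmp9, a gelatinase, stood at 12.5 and 11.02 CPM in WT A and B and at 37.5 and 47.2 CPM in KO (a log2 fold change of 1.85, SE 0.19, edgeR adjusted p = 0.0526). Mmp14, a membrane-bound collagenase, stood at 45.7 and 53.3 CPM in WT and at 109.9 and 118 CPM in KO (1.20, SE 0.14, adjusted p = 0.0668). Mmp2, a gelatinase and the gene of the list with the highest mean CPM, overlapped, at 83.3 and 165 CPM in WT against 110.4 and 127 CPM in KO. Mmp15 and Timp3 lay at 0.43 (SE 0.21) and 0.08 (SE 0.19).

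Of 9 tested collagen-binding proteoglycan and glycoprotein genes, 4 were higher and 0 lower unadjusted, with a median of 0.97. DESeq2 called Thbs1 and Bgn higher. Thbs1, thrombospondin 1, stood at 179 and 180.4 CPM in WT A and B and at 536 and 969 CPM in KO (a log2 fold change of 2.06, SE 0.31, edgeR adjusted p = 0.105), with KO B the highest sample, as for Col1a2. Bgn, biglycan, stood at 21.3 and 24.0 CPM in WT and at 36.5 and 82.7 CPM in KO (1.40, SE 0.42). Sparc, a collagen-binding matricellular protein with the highest mean CPM of the list, stood at 697 and 914 CPM in WT and at 805 and 1229 CPM in KO, with overlap (0.34, SE 0.25). Dcn, decorin, was low, at 0.213 and 0.189 CPM in WT and at 1.08 and 1.21 CPM in KO (2.48, SE 0.44, edgeR adjusted p = 0.110), and lumican and fibromodulin, Lum and Fmod, were at no more than 0.256 CPM.

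**Figure D5:**
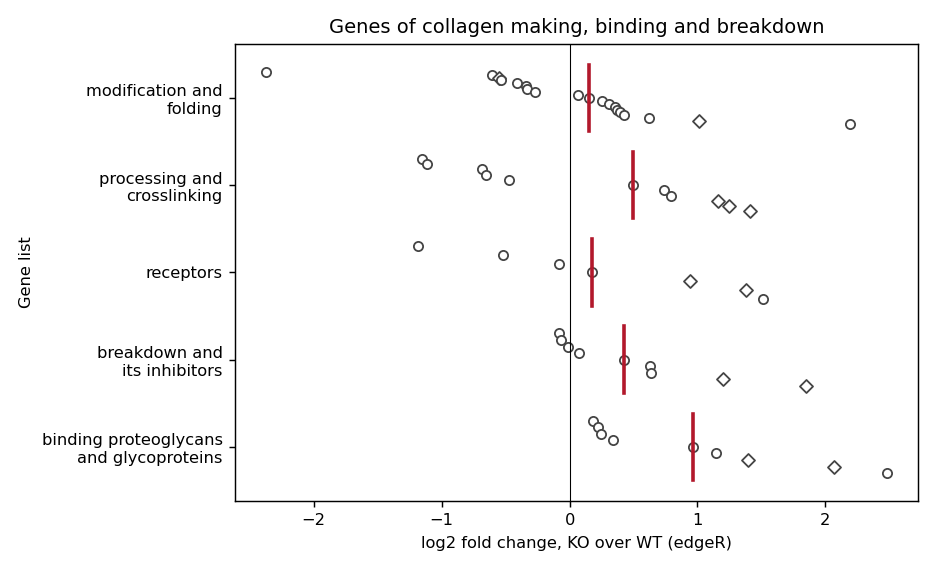
Log2 fold change of KO over WT from edgeR for the tested genes of 5 lists, 1 symbol a gene, with a red line at each list's median. Diamonds mark the 11 genes past DESeq2 (P4hb and Serpinh1 in the first list), and all genes of the last list lie above 0.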

How the data were processed

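Per the file headers, the authors deposited raw read counts per Ensembl gene with a transcript length. Per the submitters' processing notes, the tools and builds named were DESeq and mm9. Neither labels nor headers name an aligner, counter, strand setting or annotation. Symbols matched 20362 of 21868 genes, and chromosomes, neighbours and overlaps came from RefSeq (GRCm38.p6). Members, lists and tests were chosen with earlier results of these data known. Mean per-gene chi-square (over genes with at least 20 reads, noise near 1) was 1.065 to 1.101 for libraries 1 with 2 and 3 with 4, and 12.764 to 28.465 for other pairs within a genotype, so those pairs were summed. Depth per summed sample was 22674679 to 26775787. Counts were filtered (filterByExpr), TMM-scaled and fitted by edgeR 4.0.16 (quasi-likelihood test, Benjamini-Hochberg adjustment over all genes), threshold 0.05, in R 4.3.3. SE is the absolute log2 fold change over the root of the F statistic. DESeq2 1.42.0 and limma-voom (limma 3.58.1) were alternatives, among 21 refits. The edgeR step was first checked on simulated counts with known changes. Ratios of B over A used log2(CPM + 0.5). For a single value over 2 against 2 samples the smallest exact two-sided permutation p is 0.333, so summed levels and ratios got no test.

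Named were collagens with a mean of at least 1 CPM, in full if past edgeR or DESeq2 or at 20 CPM or more, plus, of each list, members past edgeR (0 in all) and the 3 others with the highest CPM. Other list genes were picked with their values known. The planned ranking of genes by likeness to Col1a2 was not run, since 4 samples are too few. Ldb1 peaks were not used here, as no annotation of their build was at hand.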

Additional observations from a re-analysis of the deposited data

How the results depend on the processing

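The count of genes past the test in all and of collagen genes past it was 31 and 2. It was 151 and 2 with no filter on low counts, 5 and 0 with at least 1 CPM in 2 samples, 1140 and 7 by DESeq2, 3 and 0 by limma-voom, and 3860 and 15 with the 8 libraries fitted separately, which counts near-identical libraries as replicates. With chromosome medians removed 0 of 41 collagen genes passed by edgeR, where 22 of 16785 genes passed in all (0.131%). An unadjusted p under 0.05 was found there for 10 collagen genes and for 2116 genes in all. Of the pathway genes, 0 passed, against 3 with no filter, 11 by DESeq2 and 24 with 8 libraries. Leaving out 1 library or sample gave 0 to 1674 genes in all, 0 to 8 collagen genes and 0 to 15 pathway genes. The 0 came without KO sample A or B, the 8 without WT sample A and 6 without WT sample B, where a lone sample is assumed to vary like the other group. The median of the other class ranged from -0.24 to 0.00092 over these. Over all genes, the deviations of sample A from its genotype mean did not go together in WT and KO (correlation -0.081). A value over all genes does not settle this for single genes. The log2 ratios of B over A were 2.24 in WT and 1.55 in KO for Col1a1 and -1.20 and -1.34 for Col15a1. For Col13a1 they were 2.19 and -0.99. The fit with a replicate block called 5 genes and 0 collagen genes. Fold changes of single genes were followed through the refits only for the collagens given in full. Among these, Col4a1 turned direction without KO sample A (-0.17, range -0.17 to 0.42) and with chromosome medians removed (-0.091). Col1a1 turned without KO sample B (-0.20, range -0.20 to 2.31). Whether directions of the remaining collagen genes turned was not followed. The fibrillar ratio was 2.05 without Col1a2 and 2.64 to 4.94 without a sample, and the Col4a1 to Col4a2 and Col6a1 to Col6a2 differences changed sign without KO sample B (0.02 and -0.10), choices made after the data were seen. RLE and library size scaling changed no collagen call. Depth limits genes under 1 CPM, where few reads were counted.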
